A study of Mus musculus with 8 samples.

Results

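The expression of 10 genes of neutrophil granules and calgranulins was followed on 8 arrays of flushed mouse aortic endothelium. The genes were S100a8, S100a9, Camp, Ngp, Ltf, Retnlg, Lcn2, Elane, Mpo and Chil3, out of 30664 genes with a probe set, and they were taken as a gauge of blood neutrophils in the flush. Each had exactly 1 probe set whose platform annotation names that gene alone (Chil3 under its old and new symbol). A mean level above 6.14, the median over all probe sets, was required for testing, and 5 of the 10 passed it, among 16518 genes. The 2 groups compared were 4 mice in which Mef2c had been deleted from endothelium by induction (EKO) and 4 littermate controls. Mice of both groups were female and carried Cdh5-CreERT2, a tamoxifen-inducible recombinase driven by an endothelial cadherin promoter, together with floxed Mef2c alleles. EKO mice were given 5 daily tamoxifen injections at 10 weeks of age, and control mice were given the solvent alone, sunflower seed oil with 10% ethanol. Thoracic aortas were collected 14 days after injections began, and each array held the RNA that TRIzol washed from the lumen of 1 aorta. Deletion and drug therefore differ together between the groups and cannot be told apart.

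Neutrophils are short-lived white cells that leave the bone marrow carrying ready-made antimicrobial proteins in granules. The granule transcripts are made in stages during maturation in the marrow. Elane and Mpo belong to the early, primary granules, Ltf, Camp, Ngp and Lcn2 to the later, secondary granules, and S100a8 and S100a9 transcripts persist in the circulating cell. S100A8 and S100A9 pair to form calprotectin, a cytosolic calcium- and zinc-binding complex. The labels give no sorting of the flushed material. In a bulk RNA sample, fewer cells of a type and less RNA per cell cannot be told apart.

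The promoters of the 4 genes that varied most between arrays are shown, because these genes varied together across the arrays. All 10 members matched an entry in the RefSeq promoter table of build GRCm38.p6, and the 250 bases before the annotated start were searched on both strands for 3 short motifs. The motifs were TTGCNNAA, read by C/EBP factors of the myeloid lineage, GAGGAA, a core bound by the ETS factor PU.1, and the TATA box TATAAA. Matches are in capitals and did not overlap each other.
S100a8, chr3:90668821-90669070, plus strand: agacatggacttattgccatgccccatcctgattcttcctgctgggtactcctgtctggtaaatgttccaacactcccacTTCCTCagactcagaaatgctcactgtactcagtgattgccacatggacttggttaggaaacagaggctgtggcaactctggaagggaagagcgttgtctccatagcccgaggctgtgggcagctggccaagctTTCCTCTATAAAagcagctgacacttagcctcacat
S100a9, chr3:90695722-90695971, minus strand: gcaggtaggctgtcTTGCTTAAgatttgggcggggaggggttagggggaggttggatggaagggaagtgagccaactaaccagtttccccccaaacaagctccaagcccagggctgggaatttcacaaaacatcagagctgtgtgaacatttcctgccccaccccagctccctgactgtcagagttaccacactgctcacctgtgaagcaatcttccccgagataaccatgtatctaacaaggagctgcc
Retnlg, chr16:48872358-48872607, plus strand: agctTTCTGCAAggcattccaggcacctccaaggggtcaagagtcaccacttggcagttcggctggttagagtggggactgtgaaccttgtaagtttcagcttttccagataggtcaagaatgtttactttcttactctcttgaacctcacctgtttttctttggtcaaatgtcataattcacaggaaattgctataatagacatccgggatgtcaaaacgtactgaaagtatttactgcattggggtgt
Ngp, chr9:110419558-110419807, plus strand: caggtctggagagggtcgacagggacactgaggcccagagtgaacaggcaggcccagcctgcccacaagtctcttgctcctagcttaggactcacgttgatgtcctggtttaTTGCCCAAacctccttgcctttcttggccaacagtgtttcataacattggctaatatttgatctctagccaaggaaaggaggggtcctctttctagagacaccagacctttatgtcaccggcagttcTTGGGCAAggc
The C/EBP letters occurred in 5 of the 10 member windows (S100a9, Ngp, Ltf, Retnlg and Lcn2) and in 9.55% of the 27025 promoters of the table. The PU.1 letters occurred in 5 of 10 (S100a8, Ltf, Lcn2, Elane and Mpo) and in 23.1% of all promoters. The TATA letters occurred in 1 of 10, S100a8, directly beside a match of the PU.1 letters, and in 13% of all. These are matches of letters, and no binding was measured.

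S100a8 and S100a9, the calgranulin pair, varied more between mice of a group than between the groups. S100a8 had a log2 expression of 7.56, 11.32, 7.81 and 8.36 on EKO arrays 1 to 4, against 7.39, 5.89, 7.76 and 9.42 on control arrays 1 to 4. EKO array 2 was the highest of the 8, control array 4 the next and control array 2 the lowest, and the groups overlapped. The span from lowest to highest was 5.44 on the log2 scale, against a median of 0.48 over tested genes. Control arrays 1 and 2 lay below their medians of negative control probe sets (7.43 and 7.44), so the low end of this span has only a bound and no fold is given. S100a9 had 7.30, 10.92, 7.85 and 8.91 on the EKO arrays, against 6.62, 6.55, 7.82 and 9.48 on the control arrays. It ranked the 8 arrays in the same order as S100a8 and spanned 4.37, with EKO array 1 and control arrays 1 and 2 below their medians of negative control probe sets.

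The differences between the groups did not pass the test for either gene. S100a8 averaged 8.76 ± 1.74 in EKO and 7.62 ± 1.45 in control aortas (SD, n = 4 each). The difference was 1.15 on the log2 scale (SE 0.95, 95% confidence interval -1.02 to 3.32, limma adjusted p = 0.703). S100a9 averaged 8.75 ± 1.60 in EKO and 7.62 ± 1.37 in control aortas, a difference of 1.13 (SE 0.88, interval -0.89 to 3.14, limma adjusted p = 0.691). Without EKO array 2 the differences were 0.29 and 0.40, and without control array 4 both were 1.75. Both intervals include 0. By comparison 0% of the 16518 genes tested passed an adjusted p of 0.05 in this contrast, and 8.92% had an unadjusted p under 0.05.

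**Figure D1:**
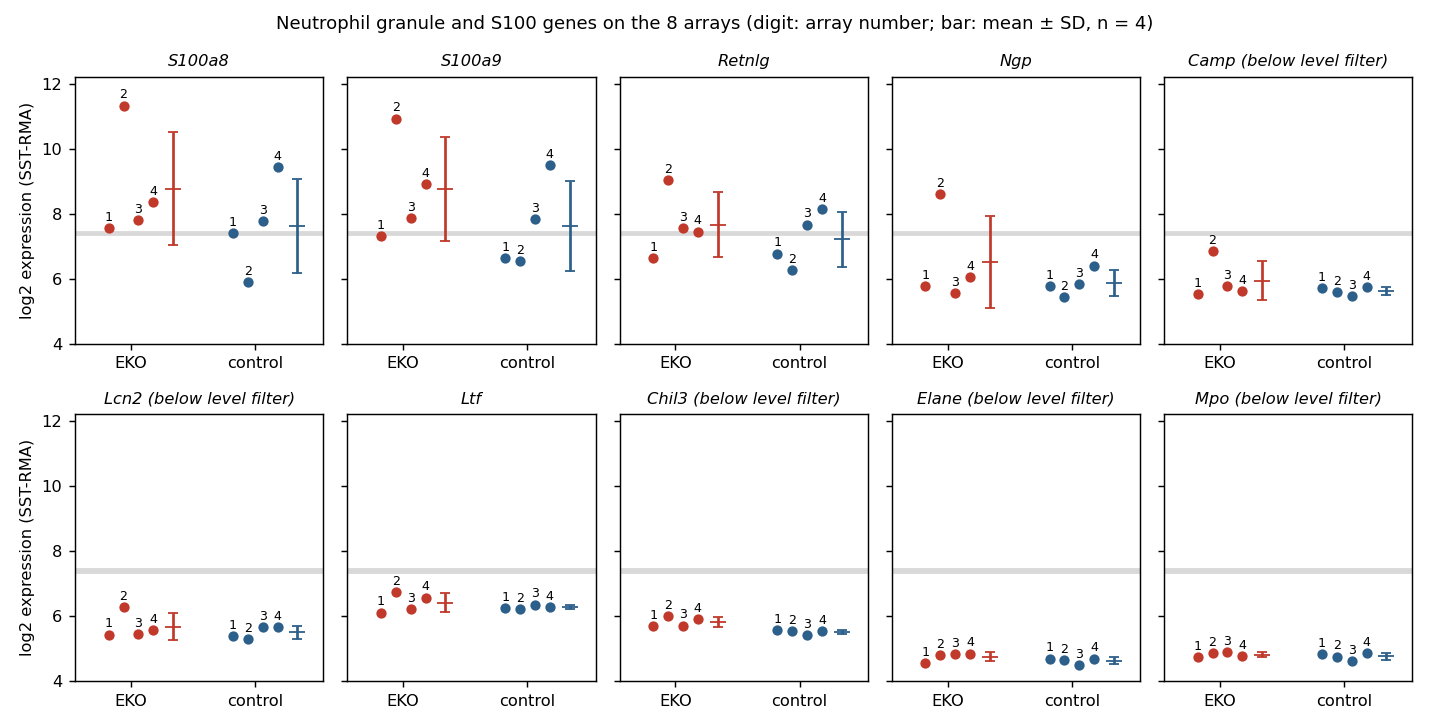
Log2 expression (vertical axis) of the 10 members on EKO arrays (red, left) and control arrays (blue, right), with the array number above each point and the mean ± SD (n = 4) beside it. The grey band spans the 8 medians of negative control probe sets (those the annotation marks neg), 7.34 to 7.45, 1 for each array. S100a8 and S100a9 reach 11.32 and 10.92 on EKO array 2, while Elane and Mpo stay between 4.48 and 4.88 on all arrays.

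Retnlg, which encodes a resistin-like protein made by neutrophils, followed the calgranulins. It read 6.63, 9.02, 7.55 and 7.44 on EKO arrays 1 to 4, against 6.77, 6.26, 7.66 and 8.13 on control arrays 1 to 4. The highest array was again EKO array 2, followed by control array 4, and control array 2 was again lowest. The mean was 7.66 ± 1.00 in EKO and 7.20 ± 0.85 in control aortas (SD, n = 4 each). The difference was 0.46 (SE 0.55, limma adjusted p = 0.798) and came to 0.00286 without EKO array 2.

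Of the secondary granule genes, Ngp stood out on a single array. Ngp, a neutrophilic granule protein related to cathelicidins, read 5.78, 8.60, 5.56 and 6.05 on the EKO arrays, against 5.78, 5.42, 5.84 and 6.40 on the control arrays. EKO array 2 exceeded the next array by 2.20, and the others of both groups lay within 0.97 of each other. Its difference was 0.64 (SE 0.62, limma adjusted p = 0.747), and -0.06 without EKO array 2. Its control mean of 5.86 lay below the level filter of 6.14, so Ngp was tested because of EKO array 2. Ltf, the iron-binding lactoferrin, ranged from 6.10 to 6.73 on EKO arrays and from 6.21 to 6.35 on control arrays, and differed by 0.13 (SE 0.14, limma adjusted p = 0.765), by 0.02 without EKO array 2 and by 0.23 without EKO array 1.

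Camp and Lcn2 averaged below the level filter and were read from a fit over all genes without it. Camp, which encodes the cathelicidin antimicrobial peptide, read 5.53, 6.85, 5.77 and 5.61 on EKO arrays, against 5.71, 5.58, 5.46 and 5.74 on control arrays. Lcn2, the iron-siderophore carrier lipocalin 2, read 5.43, 6.28, 5.43 and 5.55 on EKO arrays, against 5.37, 5.29, 5.66 and 5.67 on control arrays. In both genes EKO array 2 was the highest of all and the other 7 lay within 0.31 (Camp) and 0.38 (Lcn2) of each other. The differences were 0.32 (SE 0.26, limma adjusted p = 0.683) for Camp and 0.18 (SE 0.19, limma adjusted p = 0.755) for Lcn2, and without EKO array 2 they were 0.01 and -0.02.

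The primary granule genes did not show this pattern. Elane, the neutrophil elastase gene, ranged from 4.56 to 4.84 on EKO arrays and from 4.48 to 4.69 on control arrays, and was highest on EKO array 4. Mpo, the myeloperoxidase gene, ranged from 4.74 to 4.88 on EKO arrays and from 4.61 to 4.84 on control arrays, and was highest on EKO array 3. Their spans of 0.36 and 0.27 were below the median of 0.45 over all 30664 genes, and both lay below the level filter on every array. Their differences were 0.13 (SE 0.09, limma adjusted p = 0.635) and 0.05 (SE 0.07, limma adjusted p = 0.801).

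Chil3 was the single member whose groups did not overlap. Chil3 encodes a chitinase-like protein that monocytes and macrophages can make as well as neutrophils. It read 5.68, 6.0, 5.71 and 5.90 on EKO arrays 1 to 4, against 5.56, 5.54, 5.40 and 5.53 on control arrays 1 to 4. Every EKO array was above every control array, but all values lay below the level filter and below the median of negative control probe sets on each array. The difference was 0.31 (SE 0.09, interval 0.11 to 0.52), with an unadjusted limma p of 0.00625 and a limma adjusted p of 0.525. No fold is given at these levels. It was 0.25 without EKO array 2. Groups that do not overlap with EKO higher made up 4.25% of all 30664 genes, and an unadjusted p under 0.05 with EKO higher 6.6%, so 1 member of 10 is near the background.

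**Figure D2:**
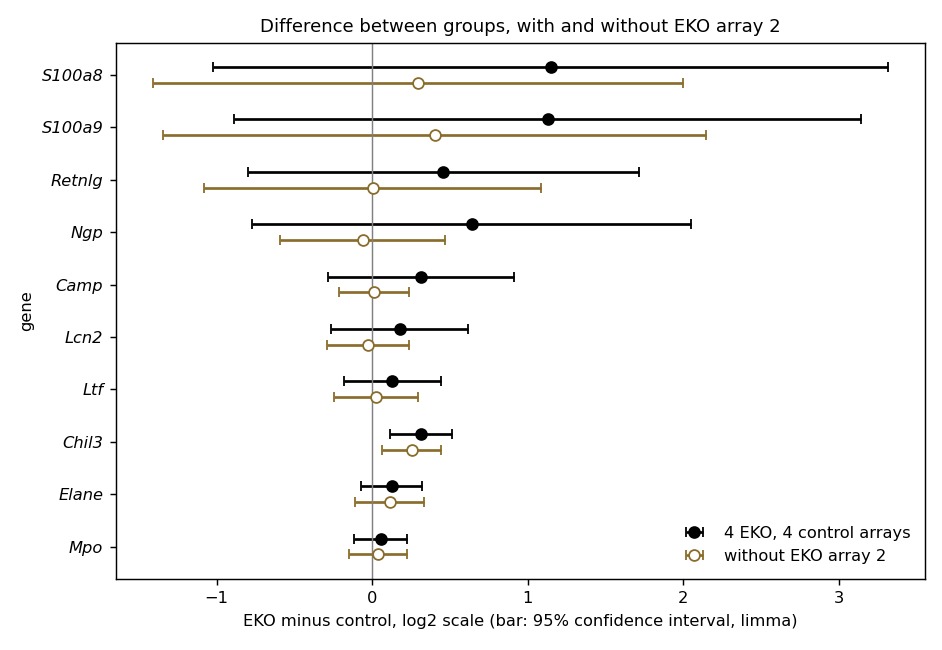
EKO minus control difference on the log2 scale (horizontal axis) for the 10 members, with 95% confidence intervals from limma, over all 8 arrays (filled) and without EKO array 2 (open). Without EKO array 2 the point of S100a8 lies at 0.29 in place of 1.15 and that of Ngp at -0.06 in place of 0.64, while Chil3 lies at 0.25 and 0.31.

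Counted over all 10 members, the EKO mean was above the control mean in 10, and in 8 without EKO array 2. Over all 30664 genes the EKO mean was the higher in 59.5% with EKO array 2 included. That share was not computed without EKO array 2, so nothing is read from the count of 8. Among tested genes that share was 45.2%, and 48.1% without EKO array 2, and nothing is read from the 5 tested members, since Ngp was tested only because of EKO array 2. EKO array 2 was the highest of the 8 arrays in 8 members, against 24.7% of all genes. Control array 2 was the lowest of the 8 in 5 members, against 11.4% of all genes. Adjusted p-values passed in 0 members with limma, and the unadjusted p was under 0.05 in 1, Chil3, against 9.03% of all genes. S100a8 exceeded the array's median of negative control probe sets on 6 arrays, S100a9 and Retnlg on 5 each and Ngp on 1, and the other 6 members on 0.

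EKO array 2 also stood apart in measures that are not about neutrophils, and their part in these results was not tested. The gap between the medians of positive and of negative control probe sets was 3.19 on EKO array 2, while the other 7 arrays had 3.34 to 3.59. Adipocyte markers were lowest there (list mean 8.19, against 8.79 to 11.12 on the other arrays). Interferon response genes were highest there in 10 of 11 tested genes, and T and NK cell markers in 5 of 7, against 15.5% of all tested genes. The arrays correlated pairwise at r = 0.980 to 0.993 over the tested genes. Endothelial identity genes, which check the labelled tissue, had list means of 12.70 to 12.88 on EKO arrays and 12.72 to 12.92 on control arrays, lowest on EKO array 2. Cdh5 averaged 16.45 in EKO and 16.37 in control aortas, and Pecam1 18.16 in EKO and 18.19 in control aortas. Mef2c read 9.56, 9.73, 9.66 and 10.03 on EKO arrays, against 9.62, 9.79, 9.88 and 9.80 on control arrays. It differed by -0.03 (SE 0.11, limma adjusted p = 0.947), and its single probe set summarises the gene as a whole, so it does not check the deletion of a part.

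The mean of genes of mature circulating neutrophils that are not members varied with S100a8 across the arrays, but most of these genes were dim. The list held 20 genes, of which 11 were tested. Only Cxcr2, Csf3r and Wfdc21 exceeded the median of negative control probe sets on any array, the other 8 on 0, and 5 of the 11 were highest on EKO array 2. All 11 had a higher EKO mean (median difference 0.29, against -0.02 over all tested genes), 9 of 11 without EKO array 2 (median 0.14), and 0 passed the adjusted threshold. Over all tested genes the EKO mean was the higher in 45.2%, and in 48.1% without EKO array 2. Mrgpra2b, 1 of the 11, averaged 6.12 in control aortas, below the level filter of 6.14, and 6.38 in EKO aortas. It was tested because of its EKO values, so nothing is read from the count. Unadjusted p-values under 0.05 with EKO higher occurred in 3 of 11, against 5.44% of all tested genes. These were Clec4e (0.32, SE 0.12, limma adjusted p = 0.544), which encodes the pattern receptor Mincle, Trem1 (0.29, SE 0.11), an amplifying receptor of myeloid cells, and its relative Trem3 (0.41, SE 0.17). In these 3 genes, all among the 8 dim ones, the highest array was EKO array 1. The chemokine receptor gene Cxcr2 read 6.79, 8.18, 7.13 and 7.37 on EKO arrays, against 6.83, 6.82, 6.95 and 7.56 on control arrays. Csf3r, the receptor of granulocyte colony-stimulating factor, read 7.24, 8.25, 7.11 and 8.0 on EKO arrays, against 7.16, 6.53, 7.02 and 8.26 on control arrays. For Csf3r, control array 4 and EKO array 2 shared the top. Ly6g, the surface antigen used to sort mouse neutrophils, ranged from 5.88 to 6.89 on EKO arrays and from 6.03 to 6.46 on control arrays.

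**Figure D3:**
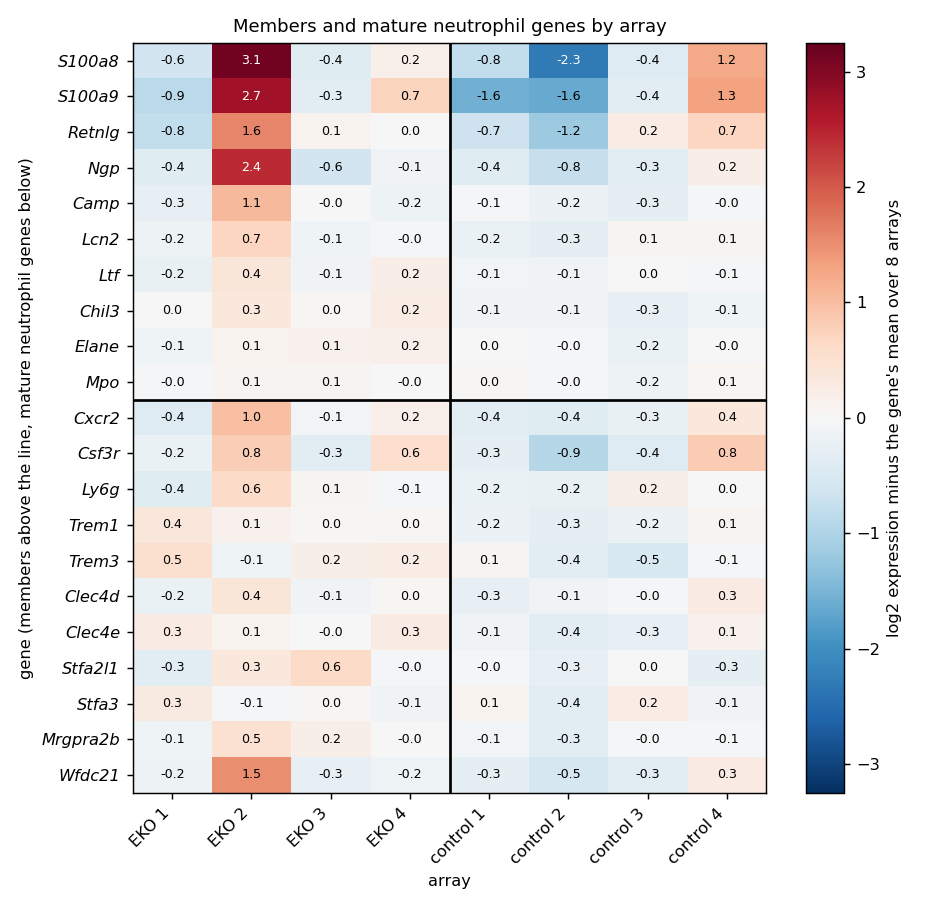
Log2 expression minus each gene's own mean over the 8 arrays (colour and printed value), for the members above the line and the 11 tested mature neutrophil genes below it, with EKO arrays on the left and control arrays on the right. EKO array 2 is the reddest column for S100a8, S100a9, Ngp, Retnlg and Wfdc21, control array 2 is the bluest for S100a8, and the rows of Elane and Mpo are nearly white.

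Across the 8 arrays S100a8 was related to 9 measures, with exact permutation p-values adjusted over the 9. S100a9 gave Pearson r = 0.956 (exact permutation p = 2.48e-05, the smallest that 8 arrays allow, adjusted p = 0.000223) and Spearman rho = 1 (exact permutation p = 4.96e-05, adjusted p = 0.000446). The mean of the 11 mature neutrophil genes gave r = 0.969 (exact permutation p = 0.000124, adjusted p = 0.000558) and rho = 0.976 (exact permutation p = 0.000397, adjusted p = 0.00179). Without EKO array 2 these r were 0.902 and 0.923 (adjusted exact permutation p = 0.00446 for each), and after dropping the 2 arrays with the most extreme x values they were 0.815 and 0.808 (exact permutation p = 0.0458 and 0.0250, adjusted p = 0.171 for each, past the threshold no longer). After each group was centred on its mean they were 0.948 and 0.996. The mature list was chosen with earlier results of these arrays known.

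T and NK cell markers were related to S100a8 as closely as the neutrophil list was. This relation and those with monocyte and with eosinophil and mast cell markers were added after the data were seen, with p-values adjusted over all 12. The mean of 7 T and NK cell markers, Cd3d among them, gave r = 0.967 (exact permutation p = 0.000422, adjusted p = 0.00169) and rho = 0.929 (exact permutation p = 0.00223, adjusted p = 0.00893). It was highest on EKO array 2 (7.90), next on control array 4 (7.28) and lowest on control array 2 (6.71), the same arrays as for S100a8. Without EKO array 2 its r was 0.924 (adjusted exact permutation p = 0.0151), after group centring 0.962, and without its 2 farthest arrays 0.801 (adjusted exact permutation p = 0.171). The variation of S100a8 was therefore not shown to be particular to neutrophil genes. Like the neutrophil list, the T and NK cell list was mostly dim. Cd3d, Cd3e and Cd3g exceeded the median of negative control probe sets on 1 array each, Gzma on 3 and Cd2 on 0. Only Lat (8 arrays) and Nkg7 (7 arrays) exceeded it on most, so this mean is no firm measure of T and NK cells. Monocyte markers gave r = 0.537 (adjusted exact permutation p = 0.330; rho = 0.405, 0.560), and eosinophil and mast cell markers r = 0.063 (0.959; rho = 0.167, 0.844). The monocyte mean holds Ace and Ly6c2, which were far brighter than its other genes.

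The remaining 7 of the 9 measures did not pass. Interferon response genes gave r = 0.775 (exact permutation p = 0.0552, adjusted p = 0.166; rho = 0.405, exact permutation p = 0.327, adjusted p = 0.588), but r = 0.08 without EKO array 2, r = -0.269 without the 2 farthest arrays and r = 0.937 (adjusted p = 0.00893) without control array 4. Platelet markers gave r = 0.495 (adjusted exact permutation p = 0.383; rho = 0.452, 0.588), B cell markers r = 0.561 (0.339; rho = 0.571, 0.453) and erythroid markers r = 0.123 (0.872; rho = 0.0952, 0.945), the last from only 3 tested genes and the B cell mean from 2. Shared leukocyte genes gave r = 0.450 (adjusted exact permutation p = 0.383; rho = 0.286, 0.748), and 0.861 without EKO array 2, where the adjusted p was 0.0589. Macrophage markers gave r = 0.02 (0.959; rho = -0.238, 0.748), and adipocyte markers r = -0.162 (0.872; rho = 0, 1). No array batch or date is given in the labels, so no relation could be taken within batches.

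**Figure D4:**
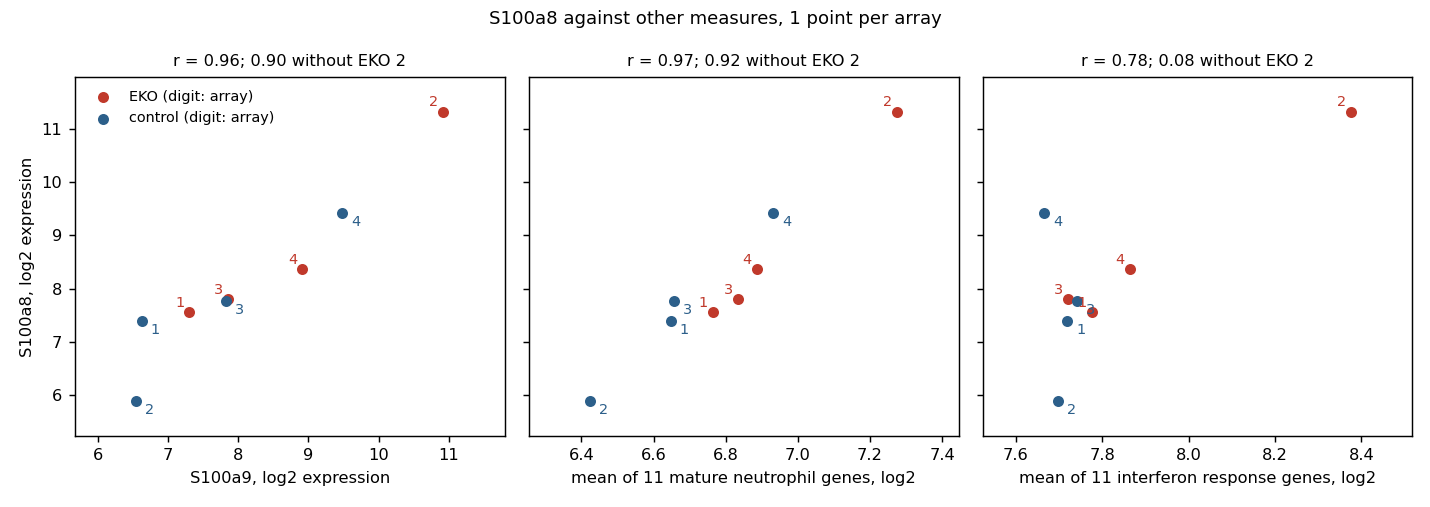
S100a8 (vertical axis, log2) against S100a9, the mean of 11 mature neutrophil genes and the mean of 11 interferon response genes (horizontal axes, log2), 1 point per array with its number, EKO in red and control in blue. The first 2 panels keep an upward order without EKO array 2 (r = 0.90 and 0.92), whereas in the third panel the other 7 arrays show none (r = 0.08).

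The 10 tested genes most like S100a8, by Pearson r over the 8 arrays and leaving out members and predicted or clone symbols, were Rasal3, Cd3d, Hcst, Satb1, Cd7, Ipcef1, Arhgap11a, Hectd2, Wfdc17 and Cxcr2. Their r lay between 0.941 and 0.978, and between 0.837 and 0.952 without EKO array 2, and all 10 were highest on EKO array 2. They were picked by this r on these same arrays, where S100a8 itself peaked on EKO array 2. The high r and the shared peak therefore follow largely from the picking and are a description only. Several are known from lymphocytes, among them Cd3d, a subunit of the T cell receptor complex, the T cell antigen gene Cd7 and the chromatin organiser Satb1. Rasal3, a Ras GTPase-activating protein of haematopoietic cells, had the highest r (0.978) and spanned 0.73 on the log2 scale. Among the members, r with S100a8 was 0.956 for S100a9, 0.945 for Retnlg, 0.930 for Lcn2 and 0.917 for Ngp, then 0.818 for Camp, 0.744 for Ltf, 0.612 for Chil3, 0.450 for Mpo and 0.404 for Elane. Without EKO array 2, r was 0.351 for Camp and 0.361 for Ltf, and 0.908 for Ngp. On those remaining arrays Camp, Ltf and Ngp (5.42 to 6.40) all lay below the medians of negative control probe sets.

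Other granule genes were mostly low. Of 13, only Hp and Pglyrp1 passed the level filter. Hp, the haemoglobin-binding haptoglobin gene, which fat also expresses, differed by -0.33 (SE 0.53), and Pglyrp1, a peptidoglycan recognition protein, by 0.22 (SE 0.32). Hp was highest on control array 3 and Pglyrp1 on EKO array 4. Among the 11 below the filter, the collagenase gene Mmp8 reached 6.43 on EKO array 2, with all others at or below 5.55, and the gelatinase gene Mmp9 reached 5.73, with all others at or below 5.51. The primary granule protease genes Prtn3 and Ctsg averaged 5.17 and 5.16 in EKO aortas, and 5.18 and 5.13 in control aortas. Of the transcription factors of granulocyte development, Cebpe and Gfi1 were below the filter, and Cebpa (-0.22, SE 0.68), Cebpb (0.02, SE 0.15) and Cebpd (0.30, SE 0.25) did not pass.

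The other S100 genes did not follow S100a8. Of 13 genes, 12 had a probe set and 8 were tested, 4 with a higher and 4 with a lower EKO mean (median difference 0.01), and 0 passed. S100b, a gene of glia and fat, differed by -0.55 (SE 0.25), S100a1, a gene of striated muscle, by -0.36 (SE 0.20), S100a16 by 0.16 (SE 0.10) and S100a14 by 0.12 (SE 0.10). The list mean was lowest on EKO array 2 (9.31), where S100a8 was highest, and ranged up to 9.64 on EKO arrays and from 9.36 to 9.58 on control arrays.

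Signals that act on neutrophils, and the proteins that bind their products, did not pass in either direction. Of 12 attractants, only Il1b (0.41, SE 0.30) and Cxcl3 (0.05, SE 0.10) passed the level filter, and Cxcl1, Cxcl2, Cxcl5 and Csf3 were below it. Il1b, which neutrophils and monocytes also make, read 7.01, 7.72, 6.98 and 7.73 on EKO arrays, against 6.89, 6.27, 6.99 and 7.64 on control arrays. Of the 7 tested endothelial adhesion genes 5 had a higher EKO mean, 2 without EKO array 2, with Icam2 at -0.09, Icam1 at 0.14, Pecam1 at -0.03 and E-selectin (Sele) at 0.38 (SE 0.79), which was -0.13 without EKO array 2. The share with a higher EKO mean was 45.2% over all tested genes, and 48.1% without EKO array 2. Tlr4, a receptor for calprotectin, differed by 0.19 (SE 0.10, limma adjusted p = 0.590) and its co-receptor Ly96 by 0.16. Lrp1, which takes up lactoferrin, differed by -0.26, and the lipocalin receptor Slc22a17 by -0.08. Inhibitors of neutrophil proteases were Serpinb1a at -0.41 (SE 0.18, unadjusted p = 0.0451, limma adjusted p = 0.553) and Serpina1b at -0.50 (SE 0.40). Serpina1b is one of a family of close copies, so its value is uncertain.

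For erythroid markers, 2 of the 3 tested were lower in EKO aortas at an unadjusted p under 0.05, against 3.48% of all tested genes. They were Alas2 (-1.02, SE 0.36) and Slc4a1 (-0.85, SE 0.28), each with a limma adjusted p above 0.5, and globin genes were not analysed here. Erythroid list means were 8.96 to 9.36 on EKO arrays and 9.12 to 10.18 on control arrays. Platelet markers ran from 7.35 to 8.80 on EKO arrays and from 7.43 to 8.59 on control arrays (9 of 12 tested, 4 higher, median difference -0.03), with Ppbp at -0.88 (SE 1.02). Monocyte markers ran from 10.06 to 10.49 on EKO arrays and from 9.71 to 10.22 on control arrays (6 of 7 tested, 6 higher, median difference 0.23, and 0.11 without EKO array 2, lowest on control array 2), with Cx3cr1 at 0.69 (SE 0.34) and Plac8 at 0.44. The level of this list mean comes mainly from Ace and Ly6c2, which averaged 17.40 and 15.30 in EKO aortas, where endothelial Cdh5 averaged 16.45. Ccr2 and F10 exceeded the median of negative control probe sets on 0 arrays, so the list mean is no measure of monocyte level. Macrophage markers ran from 7.07 to 7.45 on EKO arrays and from 6.90 to 7.37 on control arrays (9 of 14 tested, 5 higher, 4 lower, median 0.01). Adgre1, a surface receptor gene of mature macrophages, was at -0.40 (SE 0.17), but exceeded the median of negative control probe sets on 0 arrays. Csf1r (0.44) and Cd68 (0.17), which exceeded it on 4 and 7 arrays, were among the 5 higher. None of these genes passed the adjusted threshold.

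The remaining lists are given by counts and medians, and 0 of their genes passed the adjusted threshold. For comparison, the EKO mean was the higher in 45.2% of all tested genes, and in 48.1% without EKO array 2. Shared leukocyte genes had a higher EKO mean in 8 of 12 tested genes (median difference 0.20), with Ptprc (0.77) the largest. The 4 lower were Itgam (-0.43), Lyz1 (-0.24), Lyz2 (-0.22) and Alox5ap (-0.21). T and NK cell markers were higher in 6 of 7 (median 0.23, and 0.03 without EKO array 2), B cell markers in 0 of 2 and eosinophil and mast cell markers in 1 of 5 (median -0.11). Interferon response genes were higher in 10 of 11 (median 0.29, and 0.12 without EKO array 2), 3 of them at an unadjusted p under 0.05, against 5.44% of all tested genes. Endothelial identity genes were higher in 9 of 16 (median 0.03) and smooth muscle markers in 6 of 8 (median 0.03). Of the genes counted, Prg3 (the 1 higher eosinophil and mast cell gene) and Myocd (smooth muscle) averaged 6.09 in control aortas. That is below the level filter of 6.14, so they were tested because of their EKO values. Tpsb2 of the mast cell list was tested because of its control values, with an EKO mean of 6.13. Fibroblast markers were higher in 1 of 7 (median -0.41), with 2 lower at an unadjusted p under 0.05, against 3.48% of all tested genes, and adipocyte markers in 0 of 9 (median -0.57, and -0.12 without EKO array 2).

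**Figure D5:**
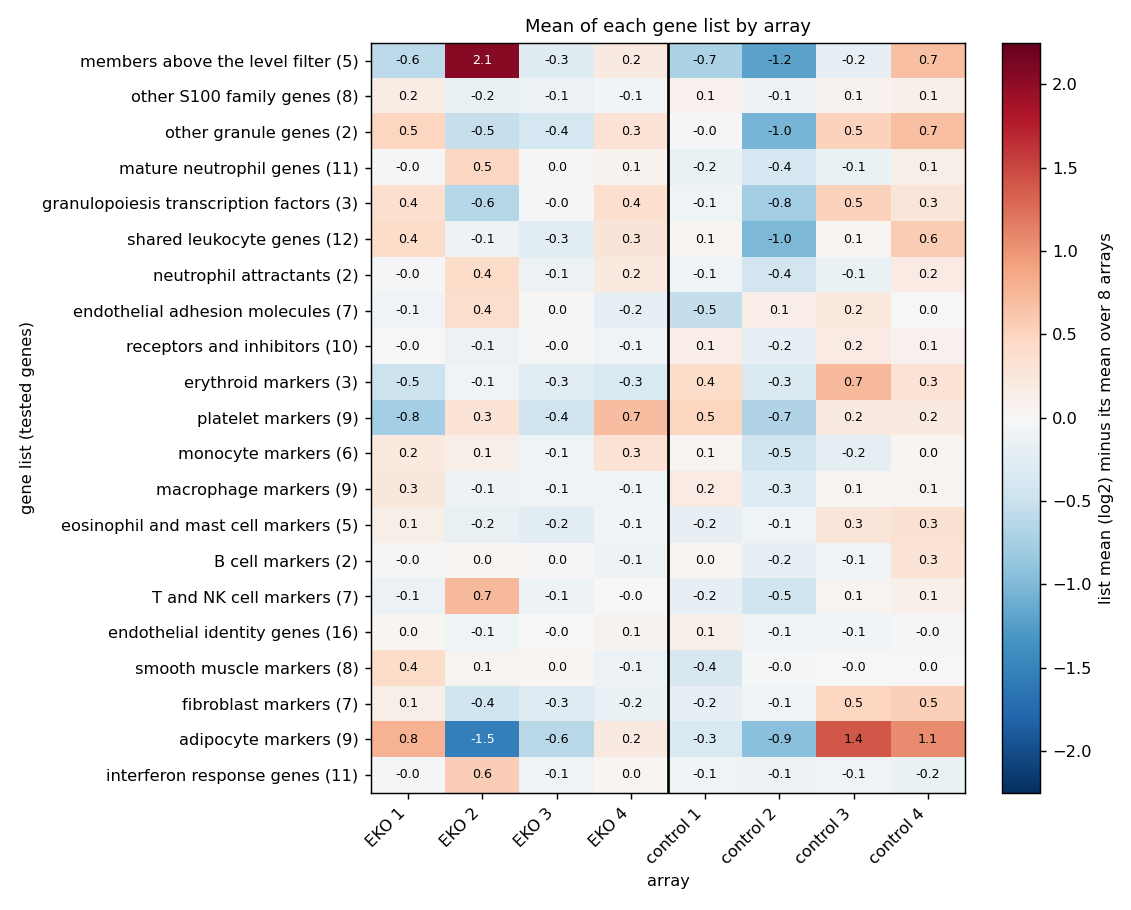
Mean log2 expression of the tested genes of each list on each array, minus the list's mean over the 8 arrays (colour and printed value), with the number of tested genes in brackets, EKO arrays on the left and control arrays on the right. EKO array 2 is highest for the members above the level filter, mature neutrophil genes, neutrophil attractants, endothelial adhesion, T and NK cell and interferon response genes. It is lowest for other S100, endothelial identity, fibroblast and adipocyte genes. Control array 2 is lowest for the members and for mature neutrophil, shared leukocyte, monocyte, macrophage, B cell and T and NK cell genes. It is also lowest for other granule genes, granulopoiesis transcription factors, neutrophil attractants, and receptors and inhibitors.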

How the data were processed

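RNA from single thoracic aortas, 4 EKO and 4 control, was measured on 8 Affymetrix Mouse Transcriptome Array 1.0 chips. Per the labels, 5 ng of total RNA was labelled by the WT Pico protocol. The deposited values are log2 expression per probe set, which the labels describe as SST-RMA output of the Expression Console software. RMA methods as a rule quantile-normalize the arrays, which removes differences in overall signal. The version and genome build are not given in the sources used here.

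Of 72688 probe sets, 31216 had 1 symbol after repeated symbols, and the old and new symbol of a gene (612 probe sets, Chil3 among them), were counted as 1. Where a symbol had several probe sets, the one with the highest mean was used. Genes with a mean above 6.14, the median over all probe sets, entered the test: 16518 of 30664 genes, and 5 of the 10 members. The others were read from the fit without that filter. EKO and control arrays were set against each other in limma 3.58.1 (R 4.3.3) without covariates, with Benjamini-Hochberg adjustment over all genes and a threshold of 0.05. Differences are EKO minus control. Relations across arrays used exact permutation of all pairings. On simulated data with 200 changed genes of 16518, the test called 85% of those changed by 1 and 99% of those changed by 2 on the log2 scale. The changed genes were picked at random, and the simulated noise was independent between genes and arrays. These shares therefore do not apply to members as variable as S100a8 (SE 0.95) and S100a9 (SE 0.88).

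The members, the 20 other gene lists and the naming rule were chosen with earlier results of these data known. Genes named are Mef2c, the members, up to 4 genes of each list by p, and the 10 genes most like S100a8. Other genes in the text, such as Csf3r, Ly6g, Mmp8 and Slc22a17, were named after their values were seen. The labels call each sample a single aorta, and the number of arrays limits the precision. Alternatives covered the level filter, normalization, centring, variance model, array weights, probe set choice, replicate block and each array left out.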

Additional observations from a re-analysis of the deposited data

Results flagged for a closer look

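In 6 of 60 groups of 4 arrays checked (10 members and 20 list means, each in both groups), 1 array stood apart by more than 0.829 of the group's range. Chance gives about 1 in 20 for a single group. The 60 groups come from the same 8 arrays and are not independent, so no excess over that rate is read. Ngp was 8.60 on EKO array 2, with its other EKO values between 5.56 and 6.05 (gap 0.838 of the range). Lcn2 was 6.28 on EKO array 2, with its other EKO values between 5.43 and 5.55 (gap 0.851). T and NK cell markers averaged 7.90 on EKO array 2, with the remaining EKO arrays between 7.04 and 7.15 (gap 0.871). Macrophage markers averaged 7.45 on EKO array 1, with the remaining EKO arrays between 7.07 and 7.10 (gap 0.916). Other S100 genes averaged 9.36 on control array 2, with the remaining control arrays between 9.55 and 9.58 (gap 0.887). Smooth muscle markers averaged 7.35 on control array 1, with the remaining control arrays between 7.68 and 7.72 (gap 0.878). S100a8 and S100a9 on EKO array 2 did not reach this limit.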

How the results depend on the processing

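With limma, 0 genes passed an adjusted p of 0.05 under any alternative run, 0 passed 0.1 with the settings of the report (the only ones for which 0.1 was tried), and 1474 genes had an unadjusted p under 0.05. The replicate numbers did not pair the arrays (correlations of deviations between -0.246 and 0.205), and with the replicate block 0 genes were called. The members kept their direction except Ngp (-0.0598) and Lcn2 (-0.0246) without EKO array 2 (ranges with each array left out up to 0.953 and 0.259), and Mpo after quantile normalization (-0.00512). With arrays left out in turn, 8 to 10 members were higher in EKO and the median difference over the 10 was 0.03 to 0.41. Without the 2 farthest arrays the relations of S100a8 with S100a9 (0.815) with mature neutrophil genes (0.808) and with T and NK cell markers (0.801) missed the adjusted threshold (p = 0.171 each by exact permutation), with fewer arrays in the test. Those with shared leukocyte genes (-0.341), macrophage markers (-0.510), eosinophil and mast cell markers (-0.190), adipocyte markers (0.770) and interferon response genes (-0.269) then turned sign, and after quantile normalization those with macrophage markers (-0.0515) and with eosinophil and mast cell markers (-0.0453) did. The cause was not tested. With arrays left out, r ranged from -0.0716 to 0.861 for shared leukocyte, -0.0642 to 0.292 for erythroid, -0.562 to 0.367 for macrophage, -0.495 to 0.633 for adipocyte, -0.173 to 0.506 for eosinophil and mast cell, 0.198 to 0.640 for monocyte and 0.0796 to 0.937 for interferon response genes, and from 0.902 to 0.980 for S100a9, 0.923 to 0.980 for mature neutrophil genes and 0.924 to 0.983 for T and NK cell markers. Levels near or below the negative control probe sets limit what can be read for all 10 members, since 0 exceeded their median on all 8 arrays. The limit is greatest for the 6 that exceeded it on 0 arrays and for Ngp, which exceeded it on 1.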
